A study of Mus musculus with 9 samples.

Results

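The genes described here encode mitochondrial ribosomal proteins. They were chosen by name, as every gene on the array whose symbol begins with Mrpl or Mrps and a number. That gave 76 of the 20239 named genes, 48 of the large subunit (Mrpl) and 28 of the small subunit (Mrps), each measured by 1 probe set. Of these, 74 passed the filter on low signal and were tested, 47 of the large and 27 of the small subunit. Mrpl22 and Mrps33 did not pass and are described by their values only.

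The study hybridised RNA of 9 whole hearts, from male C57BL/6 mice, to Affymetrix arrays, with 3 animals in each of 3 groups. The TAC HDAC4-NT hearts came from mice given an adeno-associated virus (AAV) carrying residues 1 to 201 of histone deacetylase 4 and then transaortic constriction (TAC), a surgical narrowing of the aorta that loads the left ventricle with pressure. The TAC luciferase hearts had the same operation after a virus carrying luciferase. The sham luciferase hearts had the luciferase virus and a sham operation. Every mouse, sham animals included, therefore carried an AAV, given at 8 weeks of age, 4 weeks before surgery, and the heart was taken 4 weeks after surgery. The cargo was driven by the MLC (myosin light chain) promoter, and there was no sham group with HDAC4-NT. Values are log2 intensities, so a difference of 1 is a doubling. Differences were tested with limma over 12597 genes, and "called" means an adjusted p (Benjamini-Hochberg) below 0.05.

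The mitochondrial ribosome sits in the mitochondrial matrix and translates the few messenger RNAs of the mitochondrial genome, all of which encode subunits of the respiratory chain and ATP synthase. Its ribosomal RNAs come from the mitochondrial genome, but all of its proteins are encoded in the nucleus, made in the cytosol and imported. Some descend from bacterial ribosomal proteins and others exist only in mitochondrial ribosomes. Heart muscle depends on oxidative metabolism, and inherited defects in several of these genes cause cardiomyopathy in humans.

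Promoters of this family are known for binding sites of nuclear respiratory factor 1 (NRF1) and of the ETS factor GABPA. Promoter windows of 300 bases (250 before to 50 after the start of transcription) from RefSeq, build GRCm38.p6, were found for 67 of the 76 genes. The motifs were chosen after the expression values had been seen, and a match describes letters only. The NRF1 motif GCGCANGCG (N is any base) was present, on either strand, in 21.9% of the family's 73 windows and in 6.25% of all 32851 mouse windows. With a further C required at its end, the shares were 17.8% and 4.6%. The ETS motif CCGGAAG was present in 35.6% of the family's windows and in 8.86% of all windows. The stretches below are chosen examples and do not show a split of motifs by direction. Lower genes with the ETS motif (such as Mrpl18) and genes not called with the NRF1 motif (such as Mrpl10) exist and are not printed. The first 4 stretches below belong to large-subunit genes that were lower in TAC luciferase hearts than in sham, and each holds the NRF1 motif. The last 3 belong to a gene that was higher (Mrpl33) and to a pair that were not called changed (Mrpl53 and Mrps18a), and each holds the ETS motif. Each is printed 5′ to 3′ on the gene's own strand, from 140 bases before to 15 after the start, with motif matches in capitals. CTTCCGG is the ETS motif read on the opposite strand, as is CGCNTGCGC for NRF1 (the match in Mrpl12), and the 10 capitals in Mrpl39 and Mrpl9 are 2 overlapping matches.
Mrpl39, chr16:84735230-84735384, minus strand: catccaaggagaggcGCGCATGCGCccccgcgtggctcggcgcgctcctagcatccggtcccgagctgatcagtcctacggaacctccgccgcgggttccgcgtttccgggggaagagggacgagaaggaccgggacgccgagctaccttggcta
Mrpl9, chr3:94443196-94443350, plus strand: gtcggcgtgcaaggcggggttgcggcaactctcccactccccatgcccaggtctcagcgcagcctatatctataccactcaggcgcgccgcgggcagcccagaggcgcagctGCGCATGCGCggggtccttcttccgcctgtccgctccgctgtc
Mrpl12, chr11:120484497-120484651, plus strand: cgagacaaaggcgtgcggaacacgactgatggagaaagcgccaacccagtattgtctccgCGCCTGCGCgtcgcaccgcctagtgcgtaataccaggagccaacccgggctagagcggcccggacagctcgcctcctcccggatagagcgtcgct
Mrpl45, chr11:97315576-97315730, plus strand: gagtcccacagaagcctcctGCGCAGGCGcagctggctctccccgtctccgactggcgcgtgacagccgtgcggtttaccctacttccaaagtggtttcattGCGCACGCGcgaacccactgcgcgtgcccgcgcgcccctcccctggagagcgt
Mrpl33, chr5:31613811-31613965, plus strand: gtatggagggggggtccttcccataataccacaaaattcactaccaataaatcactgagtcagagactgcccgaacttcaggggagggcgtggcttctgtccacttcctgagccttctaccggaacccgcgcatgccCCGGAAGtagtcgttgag
Mrpl53, chr6:83108968-83109122, plus strand: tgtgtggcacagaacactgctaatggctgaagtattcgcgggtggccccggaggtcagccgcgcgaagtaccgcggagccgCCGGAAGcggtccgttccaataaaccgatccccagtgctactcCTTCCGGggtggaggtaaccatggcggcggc
Mrps18a, chr17:46110864-46111018, plus strand: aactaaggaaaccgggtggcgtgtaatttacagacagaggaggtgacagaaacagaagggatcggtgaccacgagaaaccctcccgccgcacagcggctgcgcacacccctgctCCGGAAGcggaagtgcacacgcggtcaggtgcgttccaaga

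Over all 12597 genes, sham hearts lay on the far side of the first principal component (55.3% of the variance) from all TAC hearts. The second (20.0%) set TAC luciferase hearts 2 and 3, at 16.2 and 13.8, apart from TAC luciferase heart 1 at -4.8, the TAC HDAC4-NT hearts at -11.9 to -8.1 and the sham hearts at -0.9 to 5.6. For the TAC luciferase group, counts or medians are therefore also given without hearts 2 and 3, as are single genes whose call changes there. That fit rests on 1 TAC luciferase array, assumed to vary like the others. TAC luciferase hearts 2 and 3 also share the first number of their sample code, which differs from that of heart 1. The same holds for TAC HDAC4-NT hearts 2 and 3 and heart 1 of that group, which all lay at -11.9 to -8.1. All sham hearts share the same code number. No code number occurs in more than 1 group, so group and code cannot be told apart. What the code stands for is not known here. The mouse's own Hdac4 probe set ranged from 6.88 to 7.04 in TAC HDAC4-NT hearts, from 6.90 to 7.08 in TAC luciferase hearts and from 7.08 to 7.19 in sham hearts. The place of its probes relative to the delivered fragment is unknown here, so it does not check the labels.

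The comparison of TAC luciferase with sham luciferase hearts asks how pressure overload changed the family. Of the 74 genes tested, 32 were lower in TAC luciferase hearts, 1 was higher and 41 were not called. Among all genes tested, 14.9% were called lower and 11.2% higher (26.1% either way). The median log2 difference was -0.20 for the family and -0.01 for all genes, and 61 of the 74 values were below 0. Genes of both subunits were among those that fell, and Mrps35, with the largest change, fell by 37.8%. Without TAC luciferase hearts 2 and 3, 14 genes were called, all lower, where 7.87% of all genes were called lower. Of the 33 genes called with all hearts, 13 kept their call in that fit (Mrpl2, Mrpl4, Mrpl9, Mrpl18, Mrpl37, Mrpl39, Mrpl45, Mrps5, Mrps7, Mrps9, Mrps17, Mrps25 and Mrps35). Mrpl51 was called there but not with all hearts, and the other 20 kept their sign with an adjusted p of 0.0506 to 0.319.

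The TAC luciferase and sham values were fully separate in 45 of the 74 genes, beside 37.4% of all genes. All 3 TAC luciferase hearts lay below all 3 sham hearts for 43 genes and above them for 2, Mrpl33 and Mrps23; over all genes these shares were 21.6% and 15.9%. In bulk tissue, fewer cells of a type and less RNA per cell cannot be told apart. Marker genes of some other cells moved with the operation, not all in the same direction. Of 6 endothelial markers, 2 were lower and 1 higher (median -0.136, or -0.055 without TAC luciferase hearts 2 and 3). Of 4 skeletal muscle markers tested, 1 was higher and 1 lower. No atrial, lymphocyte, erythroid or smooth muscle and pericyte marker was called. Among all genes, 11.2% were called higher and 14.9% lower. Of 8 fibroblast markers, 5 were higher in TAC luciferase hearts and none lower, and their summed linear signal was 8070 to 8925 in TAC luciferase hearts, against 5672 to 6251 in sham hearts. Of 8 macrophage markers, 3 were higher and none lower, with sums of 1561 to 1788 in TAC luciferase and 1091 to 1265 in sham hearts. Of 8 cardiomyocyte markers, Myh6 and Myl3 were lower by 0.23 and 0.22, and the sums were 75930 to 78480 in TAC luciferase and 78430 to 84270 in sham hearts. Actc1 had the highest value of the array on all 9 arrays, the same value (14.109) on all but sham heart 1, so it may be at the ceiling of the scale. Without it the sums of the other 7 markers were 58260 to 60810 in TAC luciferase and 63970 to 66600 in sham hearts, which do not overlap. The call for Myh6 was lost without any 1 of 4 arrays (TAC luciferase hearts 2 and 3, sham hearts 2 and 3), and both calls were lost without TAC luciferase hearts 2 and 3 together (adjusted p 0.312 for Myh6 and 0.169 for Myl3). No marker stood at 0 on this scale, and the markers' part in the result was not tested.

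Mrps35, a small-subunit protein specific to mitochondria, had the largest change of the 74. It stood at 6.96, 7.08 and 6.99 in TAC luciferase hearts, against 7.82, 7.57 and 7.70 in sham hearts. Its level fell by 0.69 log2 units (SE 0.08, limma adjusted p 0.000466), and every TAC luciferase heart lay below every sham heart. Mrps25, another small-subunit protein specific to mitochondria, stood at 6.63, 6.69 and 6.84 in TAC luciferase hearts, against 7.36, 7.11 and 7.18 in sham hearts. It fell by 0.49 (SE 0.09, limma adjusted p 0.00352), again with no overlap.

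In the large subunit, the smallest adjusted p was that of Mrpl39, a protein specific to mitochondria. Mrpl39 stood at 8.84, 8.96 and 8.89 in TAC luciferase hearts, against 9.53, 9.49 and 9.31 in sham hearts. It fell by 0.55 (SE 0.065, limma adjusted p 0.000407), and no TAC luciferase heart reached a sham heart. Mrpl42, also specific to mitochondria, stood at 9.24, 9.09 and 9.59 in TAC luciferase hearts and at 10.21, 9.71 and 9.76 in sham hearts. It fell by 0.585 (SE 0.165, limma adjusted p 0.0288), with the largest SE of those named here. That call was lost without TAC luciferase heart 1 (adjusted p 0.0638), TAC luciferase heart 2 (0.0955), sham heart 1 (0.0909) or TAC luciferase hearts 2 and 3 together (0.0756).

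Several homologues of bacterial large-subunit proteins fell as well. Mrpl14, at the face that meets the small subunit, stood at 7.75, 7.84 and 7.81 in TAC luciferase hearts, against 8.59, 8.10 and 8.46 in sham hearts, a decrease of 0.58 (SE 0.12, limma adjusted p 0.00623). The TAC luciferase hearts were close together, and the sham hearts more spread. The adjusted p of Mrpl14 was 0.0523 without TAC luciferase hearts 2 and 3. Mrpl9 stood at 7.39, 7.84 and 7.52 in TAC luciferase hearts, against 8.34, 7.91 and 8.19 in sham hearts, a decrease of 0.56 (SE 0.13, limma adjusted p 0.0118). TAC luciferase heart 2 and sham heart 2 were close to each other in this gene, though the groups did not overlap. Mrpl18, of the central protuberance, stood at 7.73, 7.98 and 7.83 in TAC luciferase hearts, against 8.37, 8.23 and 8.32 in sham hearts (a fall of 0.46, SE 0.07, limma adjusted p 0.00162). Mrpl2, next to the peptidyl transferase centre where peptide bonds form, stood at 7.05, 7.21 and 7.13 in TAC luciferase hearts, against 7.47, 7.63 and 7.55 in sham hearts (a fall of 0.42, SE 0.07, limma adjusted p 0.0026). Both genes were lower in every TAC luciferase heart.

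Mrpl33, a small protein of the large subunit with a bacterial homologue, was the exception. It stood at 9.43, 9.38 and 9.51 in TAC luciferase hearts, against 9.04, 9.21 and 9.12 in sham hearts. It was 1.247-fold higher (log2 difference 0.32, SE 0.06, limma adjusted p 0.00568), with no overlap. Without TAC luciferase hearts 2 and 3 its difference was 0.31 and its adjusted p 0.0579. The other gene whose TAC luciferase hearts all lay above sham, Mrps23, differed by 0.12 and was not called (adjusted p 0.11). The genes nearest to no difference were Mrpl48 (0.00, adjusted p 0.984) and Mrps26 (0.00, adjusted p 0.974).

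**Figure D1:**
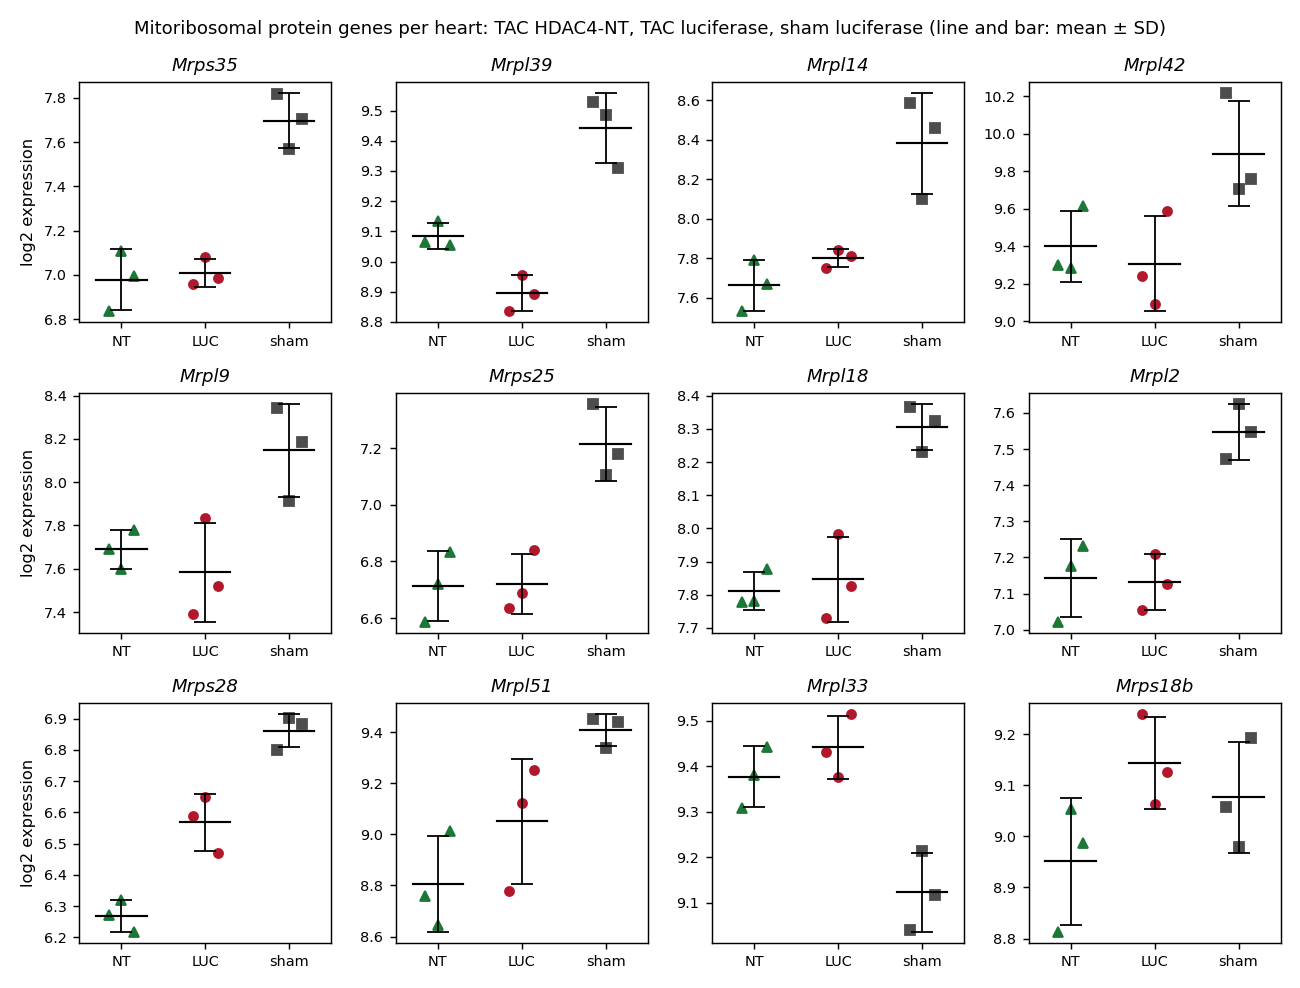
Log2 expression of 12 mitoribosomal protein genes in each heart, with TAC HDAC4-NT (NT), TAC luciferase (LUC) and sham luciferase hearts from left to right; lines and bars are the mean ± SD of 3 hearts, and each panel has its own axis, which does not start at 0. In 11 panels the TAC luciferase hearts lie wholly below the sham hearts, or wholly above them in Mrpl33, while in Mrps18b the groups overlap.

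The 2 subunits were set against each other. In the large subunit 22 of 47 genes were lower and 1 higher, with a median log2 difference of -0.21. In the small subunit 10 of 27 were lower and none higher, with a median of -0.16. The difference between the medians was -0.05. With means over genes in place of medians it was -0.058. That difference of means, computed per heart, spread with an SD of 0.0327 within groups. The SD is of single hearts and is not the error of a difference between groups. Without sham heart 2 the difference between the medians was -0.103, so its size rests in part on that heart. Mrps18a and Mrps30 bear small-subunit names but sit in the large subunit in known structures. Placed there, the counts were 22 lower of 49 for the large and 10 lower of 25 for the small subunit.

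Mean log2 values per heart, each gene first set to its sham mean, were also lower in TAC luciferase hearts for both subunits. For the large subunit these means were -0.231, -0.184 and -0.197 in TAC luciferase hearts, against 0.011, -0.038 and 0.027 in sham hearts. For the small subunit they were -0.134, -0.150 and -0.154 in TAC luciferase hearts, against -0.004, 0.004 and 0.001 in sham hearts. The large minus small difference of these means was -0.098, -0.035 and -0.043 in TAC luciferase hearts. In sham hearts it was 0.016, -0.042 and 0.026, which overlaps, so no order of the subunits can be read from it. Within either subunit, no TAC luciferase heart overlapped a sham heart, and TAC luciferase heart 1 was near hearts 2 and 3. Without those 2 hearts the median of the family was -0.19, and 8 large-subunit and 6 small-subunit genes were called lower.

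Proteins descended from bacterial ones and those specific to mitochondria were both affected. Of 45 genes with a bacterial homologue, 20 were lower and 1 higher (median -0.21). Of 29 specific to mitochondria, 12 were lower (median -0.15). Without TAC luciferase hearts 2 and 3 these medians were -0.22 and -0.14, and fewer genes of either kind were called. By place in the structure the groups are small, and their counts are read beside 14.9% lower among all genes. Of 4 proteins tested around the peptide exit tunnel, Mrpl45, which anchors the ribosome to the inner membrane, fell by 0.35 (limma adjusted p 0.00921), and Mrpl47 and Mrpl17 by 0.27 and 0.21. The call for Mrpl47 was lost when any 1 of 3 arrays was left out (adjusted p as high as 0.0654), and that for Mrpl17 with any 1 of 5 (0.0962). Both were lost without TAC luciferase hearts 2 and 3 (0.0506 for Mrpl47 and 0.319 for Mrpl17).

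In the stalk, where translation factors bind, 1 of 3 genes was called. Mrpl12 stood at 8.997, 8.922 and 8.998 in TAC luciferase hearts, against 9.291, 9.380 and 9.370 in sham hearts, and fell by 0.375 (limma adjusted p 0.00393) with no overlap. Its adjusted p was 0.0621 without TAC luciferase hearts 2 and 3. Its neighbours Mrpl10 (0.04, adjusted p 0.836) and Mrpl11 (-0.08, adjusted p 0.687) were not called. Of 6 central protuberance proteins, Mrpl18 was the only one called, a share near that of all genes. Of 6 proteins of the messenger RNA path and decoding region, 4 were lower, led by Mrps5 (a fall of 0.38, limma adjusted p 0.0035). The call for Mrps5 was kept without any 1 array. Mrps7, Mrps9 and Mrps24 each lost theirs in at least 1 fit that left out 1 array (limma adjusted p up to 0.0959). Mrps11 and Mrps12 were not called. The median of the 6 was -0.25, and -0.32 without TAC luciferase hearts 2 and 3, where fewer were called.

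Mrpl3, Mrpl44, Mrps14 and Mrps22 are genes in which human mutations cause cardiomyopathy. Only Mrps22 was called: it stood at 6.58, 6.62 and 6.62 in TAC luciferase hearts, against 6.80, 6.71 and 6.83 in sham hearts, a fall of 0.17 (SE 0.05, limma adjusted p 0.0284). The groups did not overlap, but the call was lost without any 1 TAC luciferase heart, without sham heart 1 or without sham heart 3 (adjusted p 0.0585 to 0.0811), and without TAC luciferase hearts 2 and 3 together (0.127). Mrpl3 differed by -0.25 (adjusted p 0.0873), Mrps14 by -0.115 (0.165) and Mrpl44 by -0.09 (0.3). Mrpl3 was called when TAC luciferase heart 3 (0.0382) or sham heart 3 (0.048) was left out.

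The paralogues of bacterial S18, of which the mitochondrial ribosome uses 3, were among the genes not called. Mrps18a stood at 8.77, 8.85 and 8.80 in TAC luciferase hearts, against 9.06, 8.60 and 8.92 in sham hearts. Mrps18b stood at 9.24, 9.06 and 9.13 in TAC luciferase hearts, against 9.06, 8.98 and 9.19 in sham hearts. Mrps18c stood at 7.69, 7.56 and 7.62 in TAC luciferase hearts, against 7.65, 7.68 and 7.39 in sham hearts. In each of the 3 the groups overlapped and no call was made (log2 differences of -0.05, 0.07 and 0.05, adjusted p 0.766, 0.623 and 0.82). Mrpl22 and Mrps33, below the filter, lay at 5.52 to 5.62 and at 5.51 to 5.59 in TAC luciferase hearts, and at 5.46 to 5.78 and 5.48 to 5.56 in sham hearts.

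**Figure D2:**
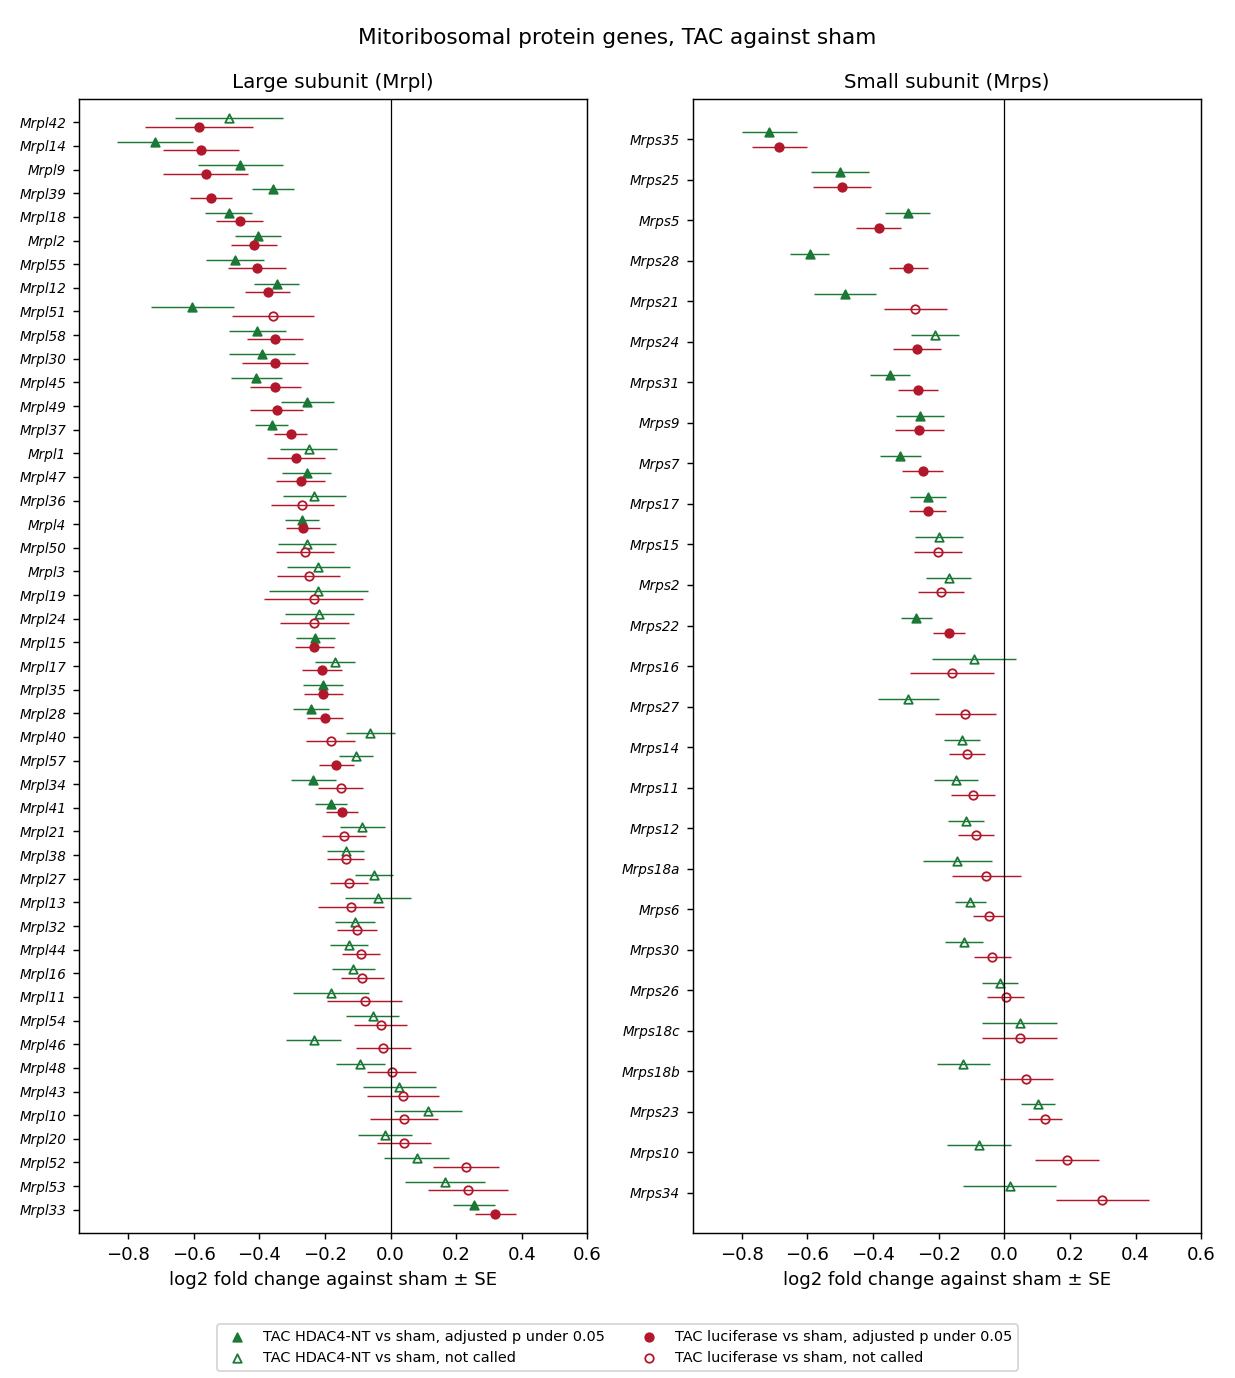
Log2 fold change ± SE of each tested gene against sham luciferase hearts (n = 3 per group), for TAC HDAC4-NT (upper point of each pair) and TAC luciferase hearts, with the large subunit on the left and the small subunit on the right; filled points have an adjusted p under 0.05. Most points lie left of 0 in both subunits, and Mrpl33 is the only gene with filled points on the right.

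Other genes of mitochondrial translation, taken from lists made up of textbook members, were lower in TAC luciferase hearts as well. Dap3 and Ptcd3, small-subunit proteins under other symbols, fell by 0.47 and 0.39 (adjusted p 0.00438 and 0.000847), while Chchd1 (-0.11) and Gadd45gip1 (0.20) were not called. Of 20 mitochondrial aminoacyl-tRNA synthetases and amidotransferase subunits, which load transfer RNAs with amino acids, 12 fell, among them Gatc (by 0.49), Gatb (by 0.48) and Hars2 (by 0.425). Of 12 translation factors and messenger RNA binding proteins 6 fell, led by the elongation factor Gfm1 (by 0.52), the messenger RNA stabilising protein Lrpprc (by 0.51) and the initiation factor Mtif2 (by 0.32). Of 21 assembly factors 11 fell, led by the 12S rRNA methyltransferase Tfb1m (by 0.595), Rbfa (by 0.52) and the 12S rRNA chaperone Eral1 (by 0.50). When TAC luciferase hearts 2 and 3 were left out, 8 of 20 synthetase, 3 of 12 translation factor and 8 of 21 assembly factor genes were called lower, and Gatb was not (adjusted p 0.063).

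Genes that keep and transcribe the mitochondrial genome followed at lower counts. Of 15 such genes 6 fell, among them Hsd17b10, a subunit of mitochondrial RNase P (by 0.40), the helicase Twnk (by 0.33) and the RNA-degrading enzyme Pnpt1 (by 0.30). Leaving out any 1 of 4 arrays (TAC luciferase hearts 1 and 2, sham hearts 1 and 3) took away the call for Pnpt1, with adjusted p as high as 0.0906. For comparison, 21 of 36 genes of respiratory complex I were lower (median -0.23), and 2 of 40 cytosolic ribosomal protein genes were lower and 1 higher (median 0.02). These counts stand beside 14.9% lower and 11.2% higher among all genes. In the fit without TAC luciferase hearts 2 and 3, 5 of 15 genome maintenance genes and 5 of 36 complex I genes were lower.

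Regulators of mitochondrial biogenesis moved in both directions. Ppara, a receptor that drives fatty acid oxidation genes, fell by 0.71 in TAC luciferase hearts (adjusted p 0.00496), the orphan receptor Esrrg by 0.47 (0.00389) and Gabpa by 0.40 (0.00758). Myc, a growth-related transcription factor, rose by 1.74 (adjusted p 0.00195) and stood at 6.95, 8.32 and 7.69 in TAC luciferase hearts, against 6.03, 5.90 and 5.80 in sham hearts. The call for Myc held without any 1 array. Without TAC luciferase hearts 2 and 3, Myc rose by 1.04 (adjusted p 0.00408) and Gabpa fell by 0.61 (0.00251), both called. Nrf1, the factor whose motif is printed above, stood at 6.04, 6.20 and 6.25 in TAC luciferase hearts, against 6.21, 6.18 and 6.13 in sham hearts. Those groups overlapped (log2 difference -0.01, adjusted p 0.899).

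The motifs were set beside the calls of this comparison, as a description with no test. The NRF1 motif was present in windows of 9 of the 28 lower genes with a window and of 6 of the 36 that were not called (4 with the further C, and again 9 of the 28). The ETS motif was present in windows of 5 of the 28 lower genes and 18 of the 36 not called, besides Mrpl33. The YY1 motif AAGATGGC was present in 6 of the 28 and in 6 of the 36, and in 16.4% of the family's windows against 2.75% of all windows. Of 14 motif spellings searched, these are 3 with 1 longer form. Mrpl17 and Mrpl57, both lower, and Mrps18b, Mrps21 and Mrps26, not called, hold both the NRF1 and the ETS motif and count under each.

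The comparison of TAC HDAC4-NT with TAC luciferase hearts asks whether the HDAC4 fragment altered the family after pressure overload. None of the 74 genes was called by limma, where 0.254% of all genes were. At an unadjusted p under 0.05 there were 6 of the 74, where 14.3% of all genes reached that level. The median log2 difference was -0.02 for the family and 0.00 for all genes, with a range of -0.30 to 0.19. The 95% interval of the difference had a median half-width of 0.17 log2 units. For 56 genes it lay within a 1.25-fold change in either direction, and for 18 it reached beyond, so the data do not settle whether those 18 changed by that much.

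Mrps28, a small-subunit protein related to bacterial S1, came nearest to a call. It stood at 6.27, 6.32 and 6.22 in TAC HDAC4-NT hearts, against 6.59, 6.65 and 6.47 in TAC luciferase hearts, with 6.80, 6.90 and 6.88 in sham hearts. The 3 groups did not overlap in any pairing. The difference between the TAC groups was -0.30 (95% interval -0.43 to -0.17, limma adjusted p 0.0637), and it was called without TAC luciferase heart 1 (adjusted p 0.0464). Mrpl39 differed the other way, with 9.06, 9.13 and 9.06 in TAC HDAC4-NT hearts, against 8.84, 8.96 and 8.89 in TAC luciferase hearts (difference 0.19, 95% interval 0.04 to 0.34, limma adjusted p 0.229).

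The other 4 with an unadjusted p under 0.05 were all lower in value in TAC HDAC4-NT hearts. Mrps10 differed by -0.27 (adjusted p 0.258), Mrps21 by -0.215 (0.346), Mrpl46 by -0.21 (0.289) and Mrps18b by -0.19 (0.324). None was called under any other setting tried. Without TAC luciferase hearts 2 and 3, the difference was -0.45 for Mrps10, -0.11 for Mrps21 and -0.29 for Mrps18b, none called. Over all 74 genes, all 3 TAC HDAC4-NT hearts lay below all 3 TAC luciferase hearts in 8 and above them in 2, beside 8.8% and 11.6% of all genes.

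By subunit, the medians of this comparison were 0.00 for the large and -0.03 for the small subunit. The means per heart of the large subunit were -0.261, -0.182 and -0.204 in TAC HDAC4-NT hearts and -0.231, -0.184 and -0.197 in TAC luciferase hearts, which overlap. Those of the small subunit were -0.241, -0.170 and -0.232 in TAC HDAC4-NT hearts and -0.134, -0.150 and -0.154 in TAC luciferase hearts, which do not. The second pair differs by 0.07 between group means, with SDs of 0.039 and 0.011 (n = 3 each), and no test was made of a mean over members.

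**Figure D3:**
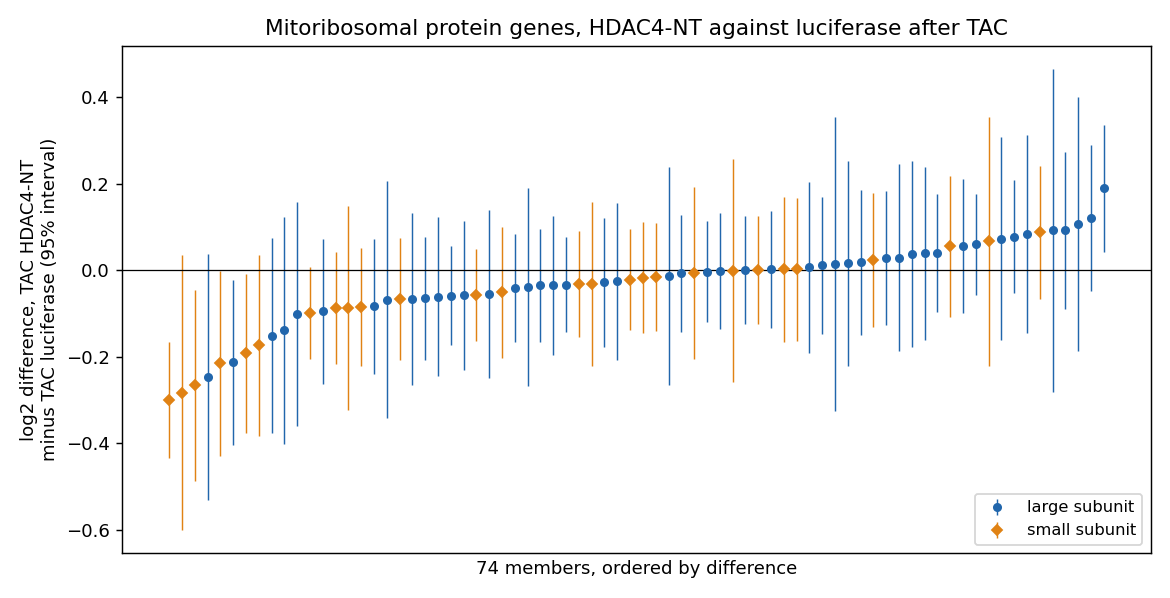
Log2 difference of each of the 74 tested genes between TAC HDAC4-NT and TAC luciferase hearts (n = 3 per group), ordered by size, with 95% intervals; circles are large-subunit and diamonds small-subunit genes. The values run from -0.30 to 0.19 around 0, and most intervals cross 0.

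No gene of the translation, assembly, genome maintenance, regulator or complex I lists was called between the TAC groups. The regulator Ppargc1a, a coactivator of mitochondrial biogenesis, stood at 9.31, 9.19 and 9.54 in TAC HDAC4-NT hearts, against 9.56, 10.46 and 10.57 in TAC luciferase hearts. Its values did not overlap between these groups, with a difference of -0.845 (SE 0.235, limma adjusted p 0.142). TAC luciferase heart 1 lay near the TAC HDAC4-NT hearts, and hearts 2 and 3 lay near the sham values of 10.33, 10.26 and 10.62. Myc stood at 6.14, 6.08 and 6.46 in TAC HDAC4-NT hearts, below all 3 TAC luciferase values above (difference -1.43, SE 0.28, adjusted p 0.0636). With TAC luciferase heart 1 alone these differences were -0.21 for Ppargc1a (adjusted p 0.751) and -0.72 for Myc (0.206).

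The comparison of TAC HDAC4-NT with sham luciferase hearts joins the operation and the cargo. It shares the sham arrays with the first comparison and the TAC HDAC4-NT arrays with the second, so likeness between them is no separate evidence. Of the 74 genes 30 were lower in TAC HDAC4-NT hearts and Mrpl33 was higher, where 12.3% of all genes were called lower and 10.5% higher (22.8% either way). The median log2 difference was -0.21 for the family and -0.01 for all genes, and 66 of the 74 values were below 0. All TAC HDAC4-NT hearts lay below all sham hearts for 45 genes and above them for 2, beside 21.5% and 18.3% of all genes.

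Among called genes of the small subunit, the largest decreases were in Mrps35, Mrps28, Mrps25 and Mrps21. Mrps35 stood at 6.835, 7.106 and 6.995 in TAC HDAC4-NT hearts, against the sham values of 7.57 to 7.82, a fall of 0.72 (SE 0.08, limma adjusted p 0.000392). Mrps28, with the values given above, fell by 0.59 (SE 0.06, limma adjusted p 0.000178), the smallest adjusted p of the family. In TAC luciferase hearts its decrease was 0.29 (adjusted p 0.00628, or 0.0507 without TAC luciferase hearts 2 and 3). Mrps25 fell by 0.50 (SE 0.09, limma adjusted p 0.00353), beside 0.49 in TAC luciferase hearts. Mrps21, a homologue of bacterial S21, stood at 10.34, 10.67 and 10.57 in TAC HDAC4-NT hearts, at 10.63, 10.70 and 10.89 in TAC luciferase hearts and at 11.09, 10.98 and 10.96 in sham hearts. It fell by 0.49 in TAC HDAC4-NT hearts (SE 0.095, limma adjusted p 0.00589) and differed by -0.27 in TAC luciferase hearts (adjusted p 0.0657, or 0.0377 without TAC luciferase heart 3 and 0.0378 without TAC HDAC4-NT heart 1).

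Among called genes of the large subunit, the largest decreases were in Mrpl14, Mrpl51, Mrpl18 and Mrpl55. Mrpl14 stood at 7.53, 7.79 and 7.67 in TAC HDAC4-NT hearts, below every sham heart, and fell by 0.72 (SE 0.12, limma adjusted p 0.0023). Mrpl51, specific to mitochondria, stood at 8.76, 8.65 and 9.01 in TAC HDAC4-NT hearts, at 8.78, 9.12 and 9.25 in TAC luciferase hearts and at 9.45, 9.34 and 9.44 in sham hearts. It fell by 0.60 in TAC HDAC4-NT hearts (SE 0.13, limma adjusted p 0.0079) and differed by -0.36 in TAC luciferase hearts (adjusted p 0.0655, or 0.0353 without TAC luciferase heart 3). It fell by 0.63 without TAC luciferase hearts 2 and 3 (adjusted p 0.0175). The difference between those 2 changes is the comparison of the TAC groups, -0.25 for Mrpl51 and -0.215 for Mrps21 (adjusted p 0.421 and 0.346), neither called. For Mrpl51 it was 0.03 without TAC luciferase hearts 2 and 3. Mrpl18 fell by 0.49 and Mrpl55 fell by 0.475 (adjusted p 0.00121 and 0.00459).

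Mrpl33 stood at 9.31, 9.38 and 9.44 in TAC HDAC4-NT hearts, above every sham heart, and rose by 0.25 (SE 0.06, limma adjusted p 0.0178). The call was lost without TAC HDAC4-NT heart 2 (adjusted p 0.0518), TAC HDAC4-NT heart 3 (0.0708) or sham heart 1 (0.0598). Mrpl42 stood at 9.30, 9.28 and 9.62 in TAC HDAC4-NT hearts, lower than every sham heart, and was not called (-0.49, adjusted p 0.0614), though it was under 6 of 18 other fits (adjusted p 0.0337 to 0.179 over all of them), among them the fit without TAC luciferase heart 3 (0.0434). Of the genes mutated in human cardiomyopathy, Mrps22 stood at 6.53, 6.52 and 6.49 in TAC HDAC4-NT hearts and fell by 0.27 (SE 0.05, limma adjusted p 0.00367), and the other 3 were not called.

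By subunit, 20 of 47 large-subunit genes were lower and 1 higher (median -0.22), and 10 of 27 small-subunit genes were lower (median -0.17). Over all genes, 12.3% were called lower and 10.5% higher. The large-subunit means per heart, -0.261 to -0.182 in TAC HDAC4-NT hearts, and the small-subunit means, -0.241 to -0.170, covered nearly the same range. Both lay below every sham mean (-0.038 to 0.027 and -0.004 to 0.004).

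**Figure D4:**
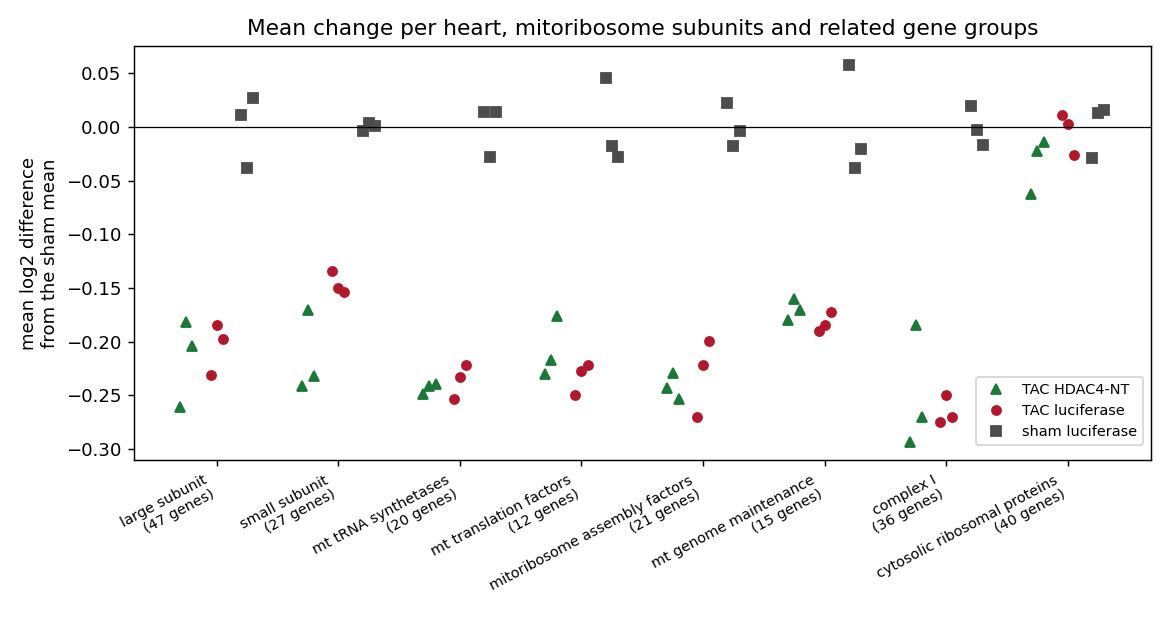
Mean log2 difference from the sham mean in each heart for the 2 subunits and for related gene groups, with TAC HDAC4-NT, TAC luciferase and sham luciferase hearts from left to right within each group of points (n = 3 hearts each). The subunits, the translation and assembly groups and complex I lie below 0 in every TAC heart, while cytosolic ribosomal protein genes lie between -0.062 and 0.016 in all hearts.

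Related gene groups in TAC HDAC4-NT hearts had 11 of 20 synthetase genes lower than in sham (led by Qrsl1, by 0.57, Cars2 and Gatb, each by 0.48), 4 of 12 translation factors, 12 of 21 assembly factors and 5 of 15 genome maintenance genes. Lrpprc fell by 0.51, Gfm1 by 0.46 and Mtif2 by 0.27. The call for Mtif2 was lost without any 1 TAC HDAC4-NT heart or without sham heart 1 or 3 (adjusted p up to 0.101). Ppargc1a fell by 1.05 (SE 0.235, limma adjusted p 0.0109), with all TAC HDAC4-NT hearts below all sham hearts, beside -0.21 (adjusted p 0.587) in TAC luciferase hearts, where it fell by 0.84 without hearts 2 and 3 (adjusted p 0.0129). Of complex I genes 16 of 36 were lower (median -0.23), and of cytosolic ribosomal protein genes 4 of 40 were lower (median 0.03).

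Marker genes in TAC HDAC4-NT hearts had 5 of 8 fibroblast and 5 of 8 macrophage markers higher than in sham. Their summed linear signals were 8815 to 9199 and 1523 to 1636. Of 5 smooth muscle and pericyte markers tested, 1 was higher and 1 lower than in sham. Of 4 skeletal muscle markers tested, 1 was higher and 1 lower. Among all genes, 10.5% were called higher and 12.3% lower in TAC HDAC4-NT hearts than in sham. Endothelial markers summed to 5621 to 5792 in TAC HDAC4-NT hearts, to 4745 to 5105 in TAC luciferase hearts and to 4703 to 5174 in sham hearts, with 1 of 6 higher in TAC HDAC4-NT than in sham hearts. Cardiomyocyte markers summed to 77070 to 78200 in TAC HDAC4-NT hearts (59400 to 60530 without Actc1, below every sham heart), with Myl3 lower by 0.21 (adjusted p 0.0141, lost without TAC HDAC4-NT heart 1 or 3 at up to 0.062). No marker of these lists was called between the TAC groups. The part of these markers in the family's changes was not tested.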

How the data were processed

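Total RNA of each heart, isolated with Trizol, was turned into biotinylated cRNA for Affymetrix arrays, per the labels. The deposited values are log2 expression values per probe set, which the authors made by RMA (per the submitters' processing notes). The RMA version, the genome build and the probe set definitions were not given in the sources used here. Because RMA compresses low signal, differences of dim genes are understated. The number of arrays limits the precision.

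Of 21225 probe sets, 20239 had 1 gene symbol in the platform annotation and the 986 others carry no name here. Names and chromosomes came from RefSeq (GRCm38.p6), where each of the 20239 was found by gene ID. Genes with at least 3 of 9 arrays above the 40th percentile of all values (log2 5.659) were tested, which kept 12597 and removed 7642. All 9 arrays entered one linear model in R 4.3.3 (limma 3.58.1, functions lmFit, contrasts.fit and eBayes; 6 residual and 3.23 prior degrees of freedom), and p-values were adjusted by Benjamini-Hochberg over all genes tested. The fitting script was tested on simulated data. Gene lists are described by counts and medians, with no list test. Python 3.11.15 and matplotlib 3.10.9 made the figures.

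The labels gave the groups, of 3 animals each. The members, gene lists, markers and settings were chosen with earlier results of these data known. Named with values were, per comparison and direction, up to 8 called members with the largest change, the S18 paralogues, the members mutated in human cardiomyopathy, the 2 members nearest 0, and up to 3 called genes per pathway list. Mrpl10, Mrpl11, Mrpl12, Mrpl17, Mrpl45, Mrpl46, Mrpl47, Mrpl53, Mrps5, Mrps7, Mrps9, Mrps10, Mrps23, Mrps24, Chchd1, Gadd45gip1, Gabpa and Nrf1, and Myc and Ppargc1a in comparisons where they were not called, were named after their values were seen. Other settings tried were no filter and a filter at the 60th percentile, cyclic loess scaling, array weights, a trended and robust prior, the replicate number as a block, fits without the third group, the sample code's first number as a random block, other thresholds, another member list, subunits by structure, means for medians, and leaving out arrays.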

Additional observations from a re-analysis of the deposited data

How the results depend on the processing

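No called gene and no median over the family changed sign under any setting tried, while the large minus small subunit difference for TAC HDAC4-NT against sham did. For TAC luciferase against sham, 33 members were called, and 14 at an adjusted p under 0.01. The count was also 14 without TAC luciferase hearts 2 and 3, a setting chosen after seeing the data. It was 24 to 32 when 1 array at a time was left out, and 24 to 40 under the other settings. Of the 33 members called, 18 kept their call without any 1 array, and 11 kept it under every one of 18 other fits. Cyclic loess scaling gave 23 lower and 2 higher, with a median of -0.16 (-0.158), and put 51.8% of all calls on the higher side, against 42.8% in the deposited scaling. Leaving out 1 array gave medians of -0.197 to -0.174 and large minus small subunit differences of -0.103 (without sham heart 2) to -0.033, against -0.05. For TAC HDAC4-NT against TAC luciferase, no member was called, and 1, Mrps28, was called with array weights, with the sample code as random block, at an adjusted p under 0.10, and without TAC luciferase heart 1 (0 to 1 over the 9 arrays). Its adjusted p was 0.016 to 0.268 over the other fits. In the sample code fit, no code number is shared between groups, and the correlation within a code was negative (-0.113). Such a correlation narrows the error of group differences, so the call for Mrps28 in that fit is no added support. Medians of TAC HDAC4-NT against TAC luciferase without 1 array were -0.037 to -0.006. The large minus small difference, 0.029, was 0.022 to 0.055 without 1 array and 0.065 without TAC luciferase hearts 2 and 3. For TAC HDAC4-NT against sham, 31 members were called, 18 at an adjusted p under 0.01, and 21 to 32 without 1 array; 19 of the 31 kept their call without any 1 array. The cyclic loess count was 26 (25 lower and 1 higher), with 52.2% of all calls higher, against 46.2%. Medians without 1 array were -0.226 to -0.181. The large minus small difference, -0.052, was -0.055 to 0.007 without 1 array (0.007 without sham heart 1 and 0.000 without sham heart 3) and -0.001 with means in place of medians, so no order of the subunits can be read from it. The causes of these shifts were not tested. The replicate numbers gave no sign of pairing the samples. Same-numbered hearts had correlations of -0.1232 to 0.1991, inside the range of -0.2495 to 0.2213 for hearts with different numbers. With the replicate number as a block, 27, 0 and 28 members were called in the 3 comparisons in the order above. With 3 arrays a group and no detection p, small changes of dim genes are beyond these data. Leaving Actc1 out of the cardiomyocyte sums was chosen after seeing the data.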
